A study of Homo sapiens with 15 samples.

Results

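The HIF pathway and glycolysis genes were 40 genes taken from a list of symbols matched to the Entrez gene numbers of the deposited count table, out of 28395 genes in that table. They comprised 3 subunits of the hypoxia-inducible factors (HIF), 5 regulators of HIF, 21 glycolysis genes and 11 hypoxia targets. The measured material was total RNA of BEAS-2B, an established human cell line derived from bronchial epithelium, sequenced after ribosomal RNA depletion. Cultures were either nonexposed controls matched by passage or were exposed to nanoplastics of polyethylene terephthalate (PET-NPLs) at 50 µg/mL, with no other agent named in the labels. There were 2 control and 2 exposed libraries at 24 h, 2 and 2 at 15 weeks, and 3 control and 4 exposed libraries at 30 weeks. The labels place 24 h and 15 weeks in batch 1 and 30 weeks in batch 2, so each comparison of exposed with control cells lies within 1 batch, whereas at 30 weeks the time and the batch cannot be told apart. The labels do not say whether replicates were separate cultures, so the p-values measure only the spread between these libraries.

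HIF is a transcription factor made of an oxygen-regulated subunit (HIF1A or EPAS1) and the constant partner ARNT. When oxygen is plentiful, prolyl hydroxylases of the EGLN family mark the oxygen-regulated subunit, VHL binds it for degradation, and HIF1AN blocks its coactivators. This control acts on the protein, so that transcript levels of HIF1A and EPAS1 do not report HIF activity by themselves. Once stabilized, HIF binds a short core motif near its targets, among them genes for glucose import and glycolysis, pH control, blood vessel growth and mitophagy.

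The core of the hypoxia response element (ACGTG or GCGTG, on either strand) was searched in the 250 bases before each start site listed by RefSeq in GRCh38.p14. Windows were found for 36 of the 40 genes, 65 windows in all, and VHL, SLC2A3, VEGFA and NDRG1 had no entry. A core was present in 38 of the 65 windows (58.5%), against 53.4% of 17903 windows of tested genes and 43.2% of all 35116 windows. Among the hypoxia targets 12 of 14 windows held a core, and among the glycolysis genes 22 of 42 did. A palindrome CACGTG was counted on both strands, windows of a gene can overlap, and a match describes letters only. Promoters of 5 genes with opposite directions after 30 weeks are shown, 5′ to 3′ on the gene's strand, with the cores in capitals. They are CA9 (chr9:35673678-35673927, plus strand) and ADM (chr11:10304823-10305072, plus strand), which were higher in exposed cells, and DDIT4 (chr10:72273674-72273923, plus strand), BNIP3 (chr10:131981924-131982173, minus strand) and ALDOC (chr17:28576896-28577145, minus strand), which were lower.
CA9: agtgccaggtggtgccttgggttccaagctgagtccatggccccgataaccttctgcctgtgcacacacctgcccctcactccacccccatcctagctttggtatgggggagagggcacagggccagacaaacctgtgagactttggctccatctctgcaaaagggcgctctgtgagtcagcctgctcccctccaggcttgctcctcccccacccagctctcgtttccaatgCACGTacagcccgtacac
ADM: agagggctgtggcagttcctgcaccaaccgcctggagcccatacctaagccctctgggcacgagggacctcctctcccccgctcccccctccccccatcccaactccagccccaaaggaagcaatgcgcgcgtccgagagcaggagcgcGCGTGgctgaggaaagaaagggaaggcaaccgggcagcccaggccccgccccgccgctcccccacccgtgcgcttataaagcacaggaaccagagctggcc
DDIT4: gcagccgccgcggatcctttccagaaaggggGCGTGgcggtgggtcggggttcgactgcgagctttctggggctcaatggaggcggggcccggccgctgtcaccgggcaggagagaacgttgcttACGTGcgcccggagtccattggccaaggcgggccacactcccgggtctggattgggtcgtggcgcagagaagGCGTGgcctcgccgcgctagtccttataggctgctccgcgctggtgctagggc
BNIP3: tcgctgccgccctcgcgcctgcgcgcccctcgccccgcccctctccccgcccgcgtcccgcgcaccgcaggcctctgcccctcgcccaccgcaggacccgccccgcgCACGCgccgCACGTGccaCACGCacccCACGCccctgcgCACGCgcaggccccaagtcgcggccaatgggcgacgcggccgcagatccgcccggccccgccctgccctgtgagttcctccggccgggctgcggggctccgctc
ALDOC: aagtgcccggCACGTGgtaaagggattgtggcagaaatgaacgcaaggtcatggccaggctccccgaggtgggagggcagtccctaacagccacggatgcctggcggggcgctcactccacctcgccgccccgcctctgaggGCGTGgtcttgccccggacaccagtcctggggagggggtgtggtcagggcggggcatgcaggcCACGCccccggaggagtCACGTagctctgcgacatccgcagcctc
Each of these 5 windows, picked for the genes' directions, held at least 1 core. The windows of PKM and PGAM1, which fell, held none.

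Libraries held between 23143202 and 31459990 counts, and all 40 genes were among the 16740 that passed the filter on low counts. Exposed replicate 2 at 30 weeks stood apart from the other exposed libraries, with correlations across genes of log2 CPM (counts scaled to library size by TMM) of 0.976 to 0.981, against 0.991 among the others. Exposure results at 30 weeks whose call it decided are given with and without it. Of 8 epithelial markers, the summed level was 772 to 1031 CPM in the libraries of 24 h and 15 weeks. At 30 weeks it was 313 to 408 CPM in controls and 876 to 1095 CPM in exposed cells. KRT8 and KRT18 carried this sum, while KRT5 had 0 counts and EPCAM, CDH1 and TP63 had a mean under 1 CPM in both groups, so the labelled epithelial type rested on simple keratins. Of 12 skeletal muscle markers, 10 had a count in the 30-week controls and 8 in exposed cells. Their sum was 308 to 397 CPM in these controls, against 31.4 to 42.4 CPM in the exposed cells of the same time and 16.2 to 41.4 CPM in the libraries of 24 h and 15 weeks. TNNT1, MYOD1 and CHRNA1 carried the sum in these controls, where ACTA1, CKM, MYH8 and TNNT3 had 0 to 4 counts per library. MYOG had 59 to 89 and DES 37 to 53 counts per library in these controls. In the exposed cells of the same time they had 0 to 3 and 0 to 6. MYH3 had 2.65 to 3.44 CPM in these controls and 3.02 to 4.06 CPM in the exposed cells of the same time. Fibroblast or mesenchymal markers summed to 1948 to 2478 CPM in the 30-week controls and 1607 to 1831 CPM in exposed cells, and airway secretory or ciliated markers to 0.253 to 1.20 and 0.245 to 0.591 CPM. Leukocyte markers summed to 1.29 to 1.83 and 3.82 to 5.81 CPM, nearly all of it CD14, with CD3E at 0 counts. Small noncoding RNAs took 22.3% to 31% of the counts in the 30-week controls, 17.0% to 21.5% in the 30-week exposed cells and 9.75% to 12.9% earlier. For the epithelial and muscle sums, the 30-week exposed cells were near the earlier libraries and the 30-week controls were not. These markers and shares differed between the 30-week groups, and their part in the results for that time was not tested. In bulk RNA, fewer cells of a type and less RNA per cell cannot be told apart.

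After 24 h and 15 weeks, PET-NPLs left the 40 genes without a detectable difference from passage-matched controls. None of the 40 passed the test at 24 h (0 of 40, with 0% of all tested genes) or at 15 weeks (0 of 40, with 0% of all tested genes), by edgeR's quasi-likelihood test with Benjamini-Hochberg adjustment over all genes. DESeq2 and limma-voom also gave 0 of 40 at both times. The median log2 fold change was 0.0035 at 24 h and 0.013 at 15 weeks, and the median size without sign was 0.058 and 0.083, against 0.113 and 0.156 over all tested genes. HIF1A, the subunit whose protein is best known for acute hypoxia, had 519 and 571 CPM in the 24 h controls and 615 and 613 CPM in exposed cells, and its log2 fold change was 0.17 (95% confidence interval -0.24 to 0.59). The only gene with an unadjusted p-value under 0.05 was EGLN2, 1 of 40 at each time, with log2 fold changes of 1.51 and 1.87. EGLN2, a prolyl hydroxylase, had 2 to 23 counts per library at these times, and it overlaps a readthrough gene with RAB4B, so its level is uncertain. VEGFA, a growth factor for blood vessels, had a log2 fold change of 0.01 at 24 h (interval -0.39 to 0.41) and -0.07 at 15 weeks (interval -0.49 to 0.36).

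After 30 weeks, 18 of the 40 genes (45%) differed between exposed and control cells, against 23.7% of all tested genes. Of these, 8 rose (12% of all genes did) and 10 fell (11.7% of all genes did), so the genes did not move in a common direction. Levels of 17 of the 40 did not overlap between the groups, against 27.3% of all tested genes, and 15 of those were among the 18. Of the 8 HIF subunits and regulators 2 rose and 1 fell, and their median log2 fold change was 0.23. Of the 21 glycolysis genes 3 rose and 7 fell, with a median of -0.17, and of the 11 hypoxia targets 3 rose and 2 fell, with a median of -0.11. The median of all tested genes was 0.008. Without exposed replicate 2, 24 of the 40 differed, 11 upregulated and 13 downregulated, beside 34.2% of all tested genes in that fit. Without control replicate 1, 12 of the 40 differed, beside 14.9% of all tested genes. With each time point fitted alone, 8 of the 40 differed, beside 15.3% of all tested genes.

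**Figure D1:**
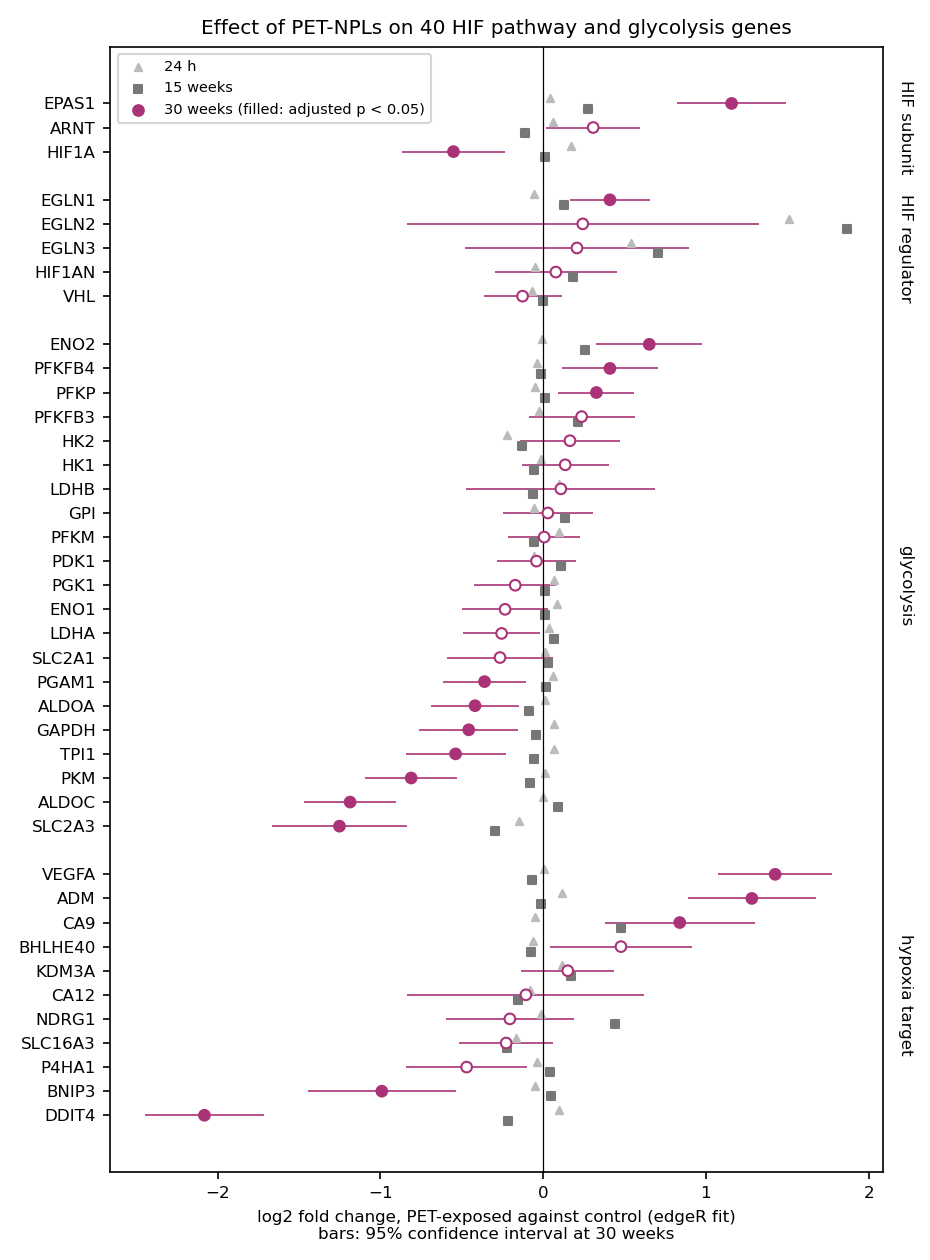
Log2 fold change of exposed against control cells for each of the 40 genes, ordered by role, at 24 h (triangles), 15 weeks (squares) and 30 weeks (circles with 95% confidence intervals, filled where the adjusted p-value was under 0.05). The 30-week values run from -2.08 for DDIT4 to 1.43 for VEGFA, and 18 circles are filled, while 0 genes passed at the earlier times.

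The 2 oxygen-regulated subunits moved in opposite directions at 30 weeks. HIF1A (chromosome 14, 61695513 to 61748258) had 150, 168 and 155 CPM in the controls and 99.2, 147, 90.0 and 93.5 CPM in exposed cells. The groups did not overlap, and exposed replicate 2 lay just under the lowest control. HIF1A fell from a mean of 157 CPM (SD 9.07, n = 3) to 108 CPM (SD 26.9, n = 4), with edgeR adjusted p = 0.0136. On the log2 scale the difference was -0.55 (standard error 0.149), or -0.74 without exposed replicate 2. EPAS1 (chromosome 2, 46297407 to 46386697), the subunit linked to prolonged hypoxia and to endothelial and lung cells, had 67.4, 69.7 and 73.1 CPM in the controls and 206, 118, 152 and 150 CPM in exposed cells. All exposed libraries lay above all controls, and EPAS1 rose by a log2 fold change of 1.16 (standard error 0.159, edgeR adjusted p = 6.04e-05). Endothelial markers were at 0.559 to 0.866 CPM in sum in the controls and 2.15 to 3.01 CPM in exposed cells, and their part in the EPAS1 level was not tested. ARNT had a log2 fold change of 0.31 and did not pass the test (edgeR adjusted p = 0.113), whereas without exposed replicate 2 it passed with 0.41 (edgeR adjusted p = 0.00669). The ratio of HIF1A to EPAS1 per exon length, a measure chosen after the values were seen, was 3.00 to 3.4 in the 30-week controls and 0.682 to 1.77 in exposed cells, where replicate 2 had the highest value. It had been 3.78 to 4.94 at 24 h and 2.24 to 3.00 at 15 weeks, so HIF1A exceeded EPAS1 in every library other than 3 exposed libraries at 30 weeks.

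Among the HIF regulators only EGLN1, the main prolyl hydroxylase acting on HIF, passed the test at 30 weeks. It had 41.0, 45.5 and 41.3 CPM in controls and 58.2, 65.2, 49.5 and 53.8 CPM in exposed cells, with no overlap. EGLN1 rose by a log2 fold change of 0.41 (standard error 0.117, edgeR adjusted p = 0.0178), a call that was lost without control replicate 1 or 3 and with each time point fitted alone (adjusted p of 0.0621, 0.0501 and 0.0798). VHL, the recognition subunit of the ubiquitin ligase for HIF, had a log2 fold change of -0.13 (95% confidence interval -0.37 to 0.11). HIF1AN, the asparaginyl hydroxylase, had 0.08 (interval -0.30 to 0.45). EGLN3, itself an inducible prolyl hydroxylase, had 17 to 41 counts per library at 30 weeks and a log2 fold change of 0.21 (interval -0.48 to 0.89).

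**Figure D2:**
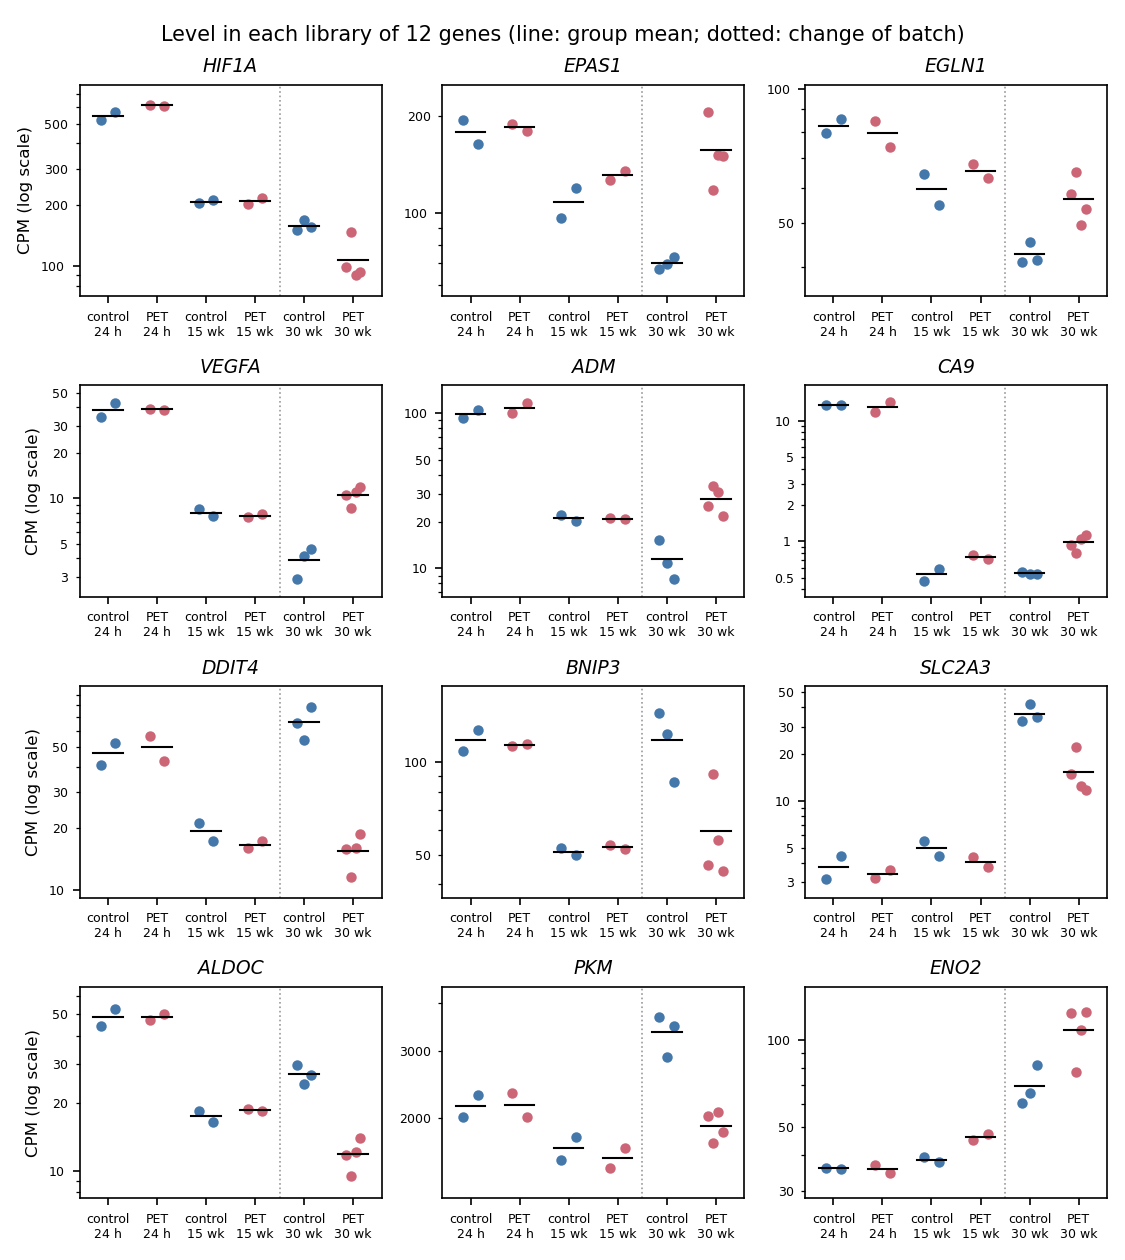
CPM on a log scale of 12 genes in each of the 15 libraries, controls in blue and exposed cells in red, with lines at the group means and a dotted line where the batch changes. At 30 weeks the EPAS1, VEGFA, ADM and CA9 points of exposed cells lie above all controls and those of HIF1A, DDIT4, SLC2A3, ALDOC and PKM lie below, while BNIP3 and ENO2 overlap.

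Hypoxia targets moved in both directions at 30 weeks. VEGFA had 2.92, 4.15 and 4.58 CPM in controls and 10.5, 8.62, 11 and 11.9 CPM in exposed cells. Every exposed library was above every control, and VEGFA rose 2.69-fold (log2 fold change 1.43, standard error 0.164, edgeR adjusted p = 1.01e-05). ADM, which encodes the vasodilator peptide adrenomedullin, had 15.3, 10.8 and 8.59 CPM in controls and 25.4, 34.2, 30.9 and 21.7 CPM in exposed cells. ADM rose 2.43-fold (log2 fold change 1.28, standard error 0.185, edgeR adjusted p = 9.95e-05). CA9, a carbonic anhydrase of the cell surface that is among the most HIF-dependent genes, rose by a log2 fold change of 0.84 (edgeR adjusted p = 0.0107) at very low levels. It had 0.559, 0.542 and 0.537 CPM in controls and 0.942, 0.806, 1.04 and 1.13 CPM in exposed cells, which were 13 to 15 and 23 to 32 counts, and its call was lost with limma-voom (adjusted p = 0.0573), with the replicate block (0.0633) and with each time point fitted alone (0.0803).

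DDIT4 (chromosome 10, 72273924 to 72276036), a stress-induced inhibitor of mTOR signalling that HIF and glucocorticoids can both induce, had the largest change of the 40 genes. It had 65.6, 54.0 and 78.5 CPM in the 30-week controls and 15.9, 11.6, 16.1 and 18.8 CPM in exposed cells. The groups were far apart, and DDIT4 fell 4.23-fold (log2 fold change -2.08, standard error 0.171, edgeR adjusted p = 2.52e-07). BNIP3, a receptor for mitophagy, had 145, 124 and 86.5 CPM in controls and 46.3, 91.8, 55.8 and 44.3 CPM in exposed cells. BNIP3 fell 1.99-fold (edgeR adjusted p = 0.00319), with an overlap made by exposed replicate 2 and control replicate 3. The other 6 targets did not pass the test: P4HA1, a collagen prolyl hydroxylase, had a log2 fold change of -0.47 (edgeR adjusted p = 0.0621), and BHLHE40, a transcriptional repressor, had 0.48 (edgeR adjusted p = 0.106). P4HA1 passed in 6 of 16 alternatives, among them the fit without exposed replicate 2 (log2 fold change -0.72), where BHLHE40 passed as well (0.66, edgeR adjusted p = 0.00176). CA12, KDM3A, NDRG1 and the lactate exporter SLC16A3 lay between -0.23 and 0.15.

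Among glycolysis genes the decreases at 30 weeks included a less abundant glucose transporter and the last enzyme of the route. SLC2A3, a high-affinity glucose transporter, had 32.9, 42.0 and 34.5 CPM in controls and 14.8, 22.3, 12.5 and 11.8 CPM in exposed cells. It fell 2.38-fold without overlap (log2 fold change -1.25, standard error 0.195, edgeR adjusted p = 0.000215). SLC2A1, the more widely expressed transporter, had 128 to 152 CPM in controls and 77.7 to 136 CPM in exposed cells. Its log2 fold change was -0.26 (95% confidence interval -0.59 to 0.06), and it did not pass the test. PKM, pyruvate kinase, had 3676, 2905 and 3494 CPM in controls and 2027, 1720, 2074 and 1839 CPM in exposed cells. PKM fell 1.75-fold (log2 fold change -0.81, standard error 0.134, edgeR adjusted p = 0.000351). ALDOC, an aldolase best known from brain, had 29.6, 24.4 and 26.7 CPM in controls and 11.7, 9.43, 12.1 and 14.0 CPM in exposed cells, and it fell 2.27-fold (log2 fold change -1.19, standard error 0.133, edgeR adjusted p = 7.87e-06). Its more abundant relative ALDOA had 868, 626 and 763 CPM in controls and 602, 494, 580 and 575 CPM in exposed cells, and it fell 1.34-fold (edgeR adjusted p = 0.0269).

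The other decreases were in TPI1, GAPDH and PGAM1, which act after aldolase. TPI1, triosephosphate isomerase, had 1947, 1562 and 1432 CPM in controls and 960, 1392, 1134 and 1053 CPM in exposed cells, a 1.45-fold decrease (edgeR adjusted p = 0.0134). GAPDH had 7204, 5539 and 5368 CPM in controls and 3915, 5078, 4525 and 4080 CPM in exposed cells, a 1.37-fold decrease (edgeR adjusted p = 0.0298). PGAM1, phosphoglycerate mutase, had 420, 376 and 323 CPM in controls and 266, 329, 300 and 267 CPM in exposed cells, with a small overlap and a 1.28-fold decrease (edgeR adjusted p = 0.0408). Control replicate 1 had the highest value of each of TPI1, GAPDH, PGAM1 and ALDOA, and none of these 4 passed without it, with the replicate block or with each time point fitted alone. Of 16 alternatives, the call was lost in 3 for TPI1, 5 for ALDOA, 6 for GAPDH and 8 for PGAM1. GAPDH and PGAM1 have pseudogene copies, TPI1 and BNIP3 overlap a neighbouring gene, and how shared reads were counted is not given in the sources used here.

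Increases among glycolysis genes fell on ENO2, PFKP and PFKFB4. ENO2, the enolase of neurons and neuroendocrine cells, had 60.3, 65.4 and 82.1 CPM in controls and 124, 77.3, 109 and 125 CPM in exposed cells. ENO2 rose 1.57-fold (log2 fold change 0.65, standard error 0.153, edgeR adjusted p = 0.00567), with exposed replicate 2 inside the control range. ENO1, the widely expressed enolase, had 5131 to 6203 CPM in controls and 4616 to 4911 CPM in exposed cells without overlap, but did not pass the test (log2 fold change -0.23, edgeR adjusted p = 0.194). PFKP, a phosphofructokinase, had 318, 261 and 287 CPM in controls and 384, 358, 372 and 334 CPM in exposed cells (log2 fold change 0.33, edgeR adjusted p = 0.0412). PFKFB4, which makes and removes the activator of phosphofructokinase, had 10.1, 9.71 and 9.81 CPM in controls and 14.1, 10.5, 11.9 and 16 CPM in exposed cells (log2 fold change 0.41, edgeR adjusted p = 0.0437). The call of PFKP was lost in 8 and that of PFKFB4 in 10 of 16 alternatives.

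None of the remaining 11 glycolysis genes passed in the main fit. Without exposed replicate 2 LDHA and LDHB, the subunits of lactate dehydrogenase, and PFKFB3 passed. With all libraries LDHA also passed in DESeq2 and in limma-voom with surrogate variables. LDHA had 805, 781 and 874 CPM in controls and 710, 764, 633 and 643 CPM in exposed cells, with a log2 fold change of -0.25 (edgeR adjusted p = 0.114), which was -0.31 without exposed replicate 2 (edgeR adjusted p = 0.0274). LDHB had 286, 297 and 247 CPM in controls and 202, 559, 222 and 210 CPM in exposed cells, where replicate 2 was far above the others. Its log2 fold change was 0.11 with all libraries (edgeR adjusted p = 0.821) and -0.39 without exposed replicate 2 (edgeR adjusted p = 0.01). HK1 and HK2 (hexokinases), GPI, PFKM, PFKFB3, PGK1 and the pyruvate dehydrogenase kinase PDK1 had log2 fold changes between -0.17 and 0.24, and PFKFB3 had 0.35 without exposed replicate 2 (edgeR adjusted p = 0.0421). Per exon length, GAPDH had the highest mean level of the 40 genes in the 30-week controls, ahead of ENO1 and TPI1. The summed level of the 21 glycolysis genes was 19566 to 23598 CPM in the controls and 15505 to 17334 CPM in exposed cells, without overlap. GAPDH, ENO1 and PKM carried most of this sum in both groups. At 24 h the sum had been 16118 to 18274 CPM in controls and 17743 to 17941 CPM in exposed cells. At 15 weeks it had been 13861 to 14404 CPM in controls and 13816 to 14190 CPM in exposed cells.

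**Figure D3:**
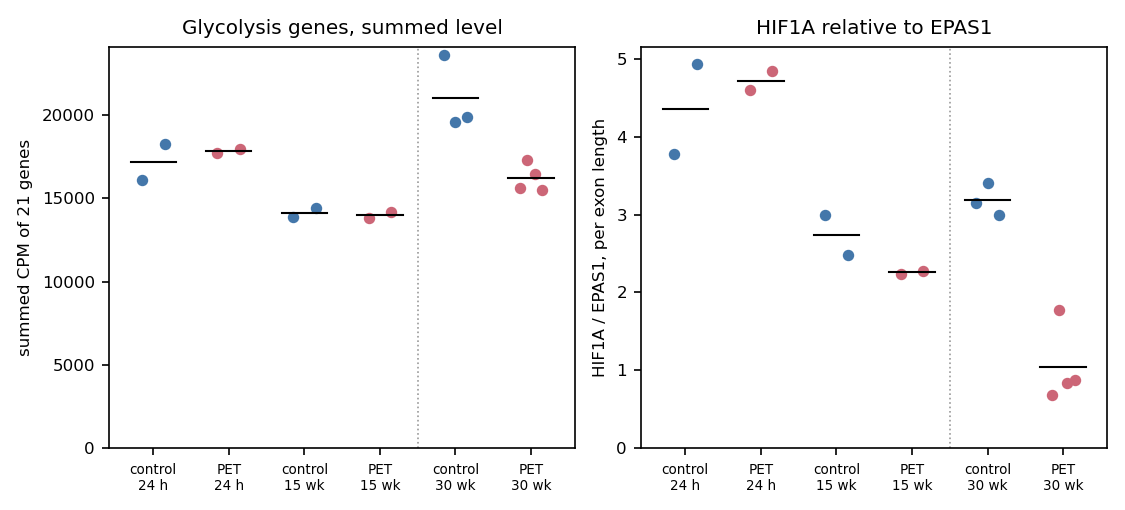
Summed CPM of the 21 glycolysis genes (left) and HIF1A to EPAS1 ratio per exon length (right) in each library, controls in blue and exposed cells in red, with lines at the group means. At 30 weeks the sums of exposed cells (15505 to 17334 CPM) lie below those of controls (19566 to 23598 CPM), and the ratios of exposed cells (0.682 to 1.77) lie below those of controls (3.00 to 3.4).

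The effect of exposure differed between 30 and 15 weeks for 4 of the 40 genes (2 in each direction), against 4.74% of all tested genes, 2.66% upward and 2.08% downward, in a test of the difference itself. VEGFA had 8.47 and 7.58 CPM in controls and 7.48 and 7.82 CPM in exposed cells at 15 weeks, and the change of its effect was 1.49 on the log2 scale (standard error 0.258, edgeR adjusted p = 0.00228). ADM had 22 and 20.1 CPM in controls and 21.1 and 20.7 CPM in exposed cells at 15 weeks, and its effect changed by 1.29 (standard error 0.294, edgeR adjusted p = 0.0159). For both genes the groups overlapped at 15 weeks and were apart at 30 weeks. DDIT4 had 21.3 and 17.5 CPM in controls and 16 and 17.3 CPM in exposed cells at 15 weeks, and its effect changed by -1.86 (standard error 0.284, edgeR adjusted p = 0.000809). ALDOC had 18.5 and 16.5 CPM in controls and 18.9 and 18.4 CPM in exposed cells at 15 weeks, and its effect changed by -1.28 (standard error 0.22, edgeR adjusted p = 0.0022). The calls of VEGFA, DDIT4 and ALDOC held in all 20 alternatives of this test, and that of ADM was lost at a threshold of 0.01 and without control replicate 1, exposed replicate 1 or exposed replicate 2 at 15 weeks (edgeR adjusted p of 0.0806, 0.0761 and 0.0912). EPAS1 did not pass (change of effect 0.88, edgeR adjusted p = 0.062). Without exposed replicate 2 of 30 weeks 10 genes passed, with HIF1A, EPAS1, SLC2A3, PKM, BNIP3 and P4HA1 added to the 4. The share of all tested genes for this comparison in that fit is not given. The 2 effects come from different batches, and a batch that acts differently on exposed and control cells cannot be told apart from the time.

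Within batch 1, control cells at 15 weeks had lower levels of many of these genes than control cells at 24 h. Of the 40 genes 20 fell and 0 rose, while 24.9% of all tested genes changed and 12.2% of all tested genes fell. The median log2 fold change was -0.51, against -0.02 over all tested genes. The decrease covered 9 of the 11 hypoxia targets, 8 of the 21 glycolysis genes and 3 of the 8 subunits and regulators. CA9 had 13.6 and 13.5 CPM at 24 h and 0.474 and 0.590 CPM at 15 weeks, a 25.2-fold decrease (log2 fold change -4.66, standard error 0.241, edgeR adjusted p = 1.74e-09). VEGFA fell 4.82-fold from 34.6 and 42.7 CPM to 8.47 and 7.58 CPM (edgeR adjusted p = 7.34e-07). ADM fell 4.74-fold from 94.0 and 106 CPM to 22 and 20.1 CPM (edgeR adjusted p = 4.32e-06). HIF1A itself fell 2.63-fold, from 519 and 571 CPM to 204 and 210 CPM (edgeR adjusted p = 8.8e-05), and EPAS1 fell 1.66-fold (edgeR adjusted p = 0.0146). ARNT, VHL and HIF1AN had log2 fold changes of -0.06, 0.25 and -0.06 and did not pass.

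The glycolysis genes that fell in controls from 24 h to 15 weeks were LDHA (log2 fold change -1.23), SLC2A1 (-1.21), ALDOC (-1.47), HK2 (-0.99), ALDOA (-0.70), PDK1 (-0.66), PFKFB3 (-0.57) and GAPDH (-0.54), all by edgeR with adjusted p under the threshold of 0.05. HK2 is the inducible hexokinase, PDK1 restrains the entry of pyruvate into mitochondria, and PFKFB3 makes the activator of phosphofructokinase. PKM, TPI1 and ENO1 had values of -0.37, -0.29 and 0.14 and did not pass. With each library of these 2 groups left out in turn, 12 (without 15-week replicate 2) to 14 genes passed, and 10 passed under all 14 alternatives: HIF1A, SLC2A1, HK2, ALDOC, LDHA, PDK1, CA9, VEGFA, ADM and DDIT4. Exposed cells gave 18 decreases and 1 increase over the same interval, against 26% of all tested genes changed, 12.5% downward, and 10 to 14 passed with a library left out, the fewest without exposed replicate 2 of 15 weeks. CA9 (-4.12), ADM (-2.37), VEGFA (-2.34) and HIF1A (-1.55) were among the decreases, and NDRG1, a stress-response gene, was the increase (log2 fold change 1.10, edgeR adjusted p = 0.00371). NDRG1 had 56.0 and 46.0 CPM in exposed cells at 24 h and 91.4 and 127 CPM at 15 weeks, so its replicates lay apart. Fitted without the 30-week libraries, an alternative chosen after seeing the data, 27 genes passed in controls and 26 in exposed cells. The shares of all tested genes in that fit, and in the fits with a library left out, are not given. Whether these higher counts are particular to the HIF pathway and glycolysis genes was therefore not tested.

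**Figure D4:**
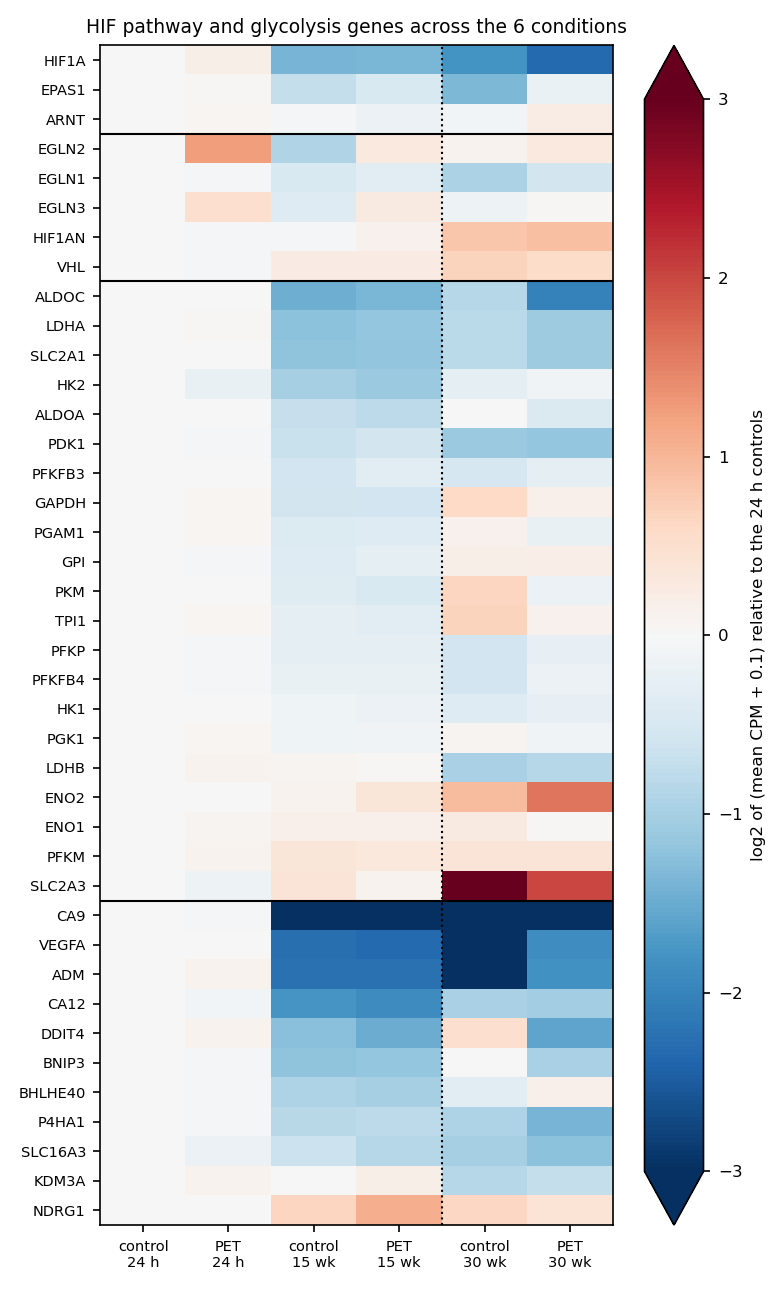
Mean level of each of the 40 genes in the 6 conditions as log2 of (mean CPM + 0.1) relative to the 24 h controls, with horizontal lines between subunits, regulators, glycolysis genes and hypoxia targets and a dotted line where the batch changes. Colours stop at 3 in either direction. CA9, VEGFA, ADM and HIF1A are lower in all 4 later conditions, and DDIT4 and BNIP3 lie at or above their 24 h control level in the 30-week controls and below it in the other 3 later conditions.

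From 15 to 30 weeks, a span that also changes the batch, genes passed in both directions in both arms. In controls 15 of the 40 genes rose and 7 fell, against 50.3% of all tested genes changed, 25.6% upward and 24.6% downward. In exposed cells 9 rose and 7 fell, against 46% of all tested genes, 23.3% upward and 22.7% downward. Neither count in exposed cells exceeded its share over all tested genes. Of the 21 glycolysis genes 11 rose and 2 fell in controls, and 6 rose and 3 fell in exposed cells. Their median log2 fold change was 0.42 in controls and 0.09 in exposed cells, against 0.013 and 0.005 over all tested genes. These comparisons share libraries with the exposure comparisons above, and the values of both arms are given side by side. DDIT4 rose in controls from 21.3 and 17.5 CPM to 54.0 to 78.5 CPM (log2 fold change 1.77, edgeR adjusted p = 9.28e-06), whereas exposed cells had -0.09 (95% confidence interval -0.51 to 0.32). BNIP3 rose in controls by 1.21 (edgeR adjusted p = 0.00148), against 0.17 in exposed cells (interval -0.35 to 0.69). PKM rose in controls by 1.01 (edgeR adjusted p = 0.000136), against 0.28 in exposed cells (interval -0.05 to 0.61). The difference between the arms is the change of effect tested above, which DDIT4 passed and which BNIP3 (-1.04, edgeR adjusted p = 0.134) and PKM (-0.73, edgeR adjusted p = 0.0821) did not.

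VEGFA fell in controls by a log2 fold change of -1.04 (edgeR adjusted p = 0.000292) and rose in exposed cells by 0.46 (edgeR adjusted p = 0.0438). Its call in exposed cells was lost without the filter on low counts, without 6 abundant small noncoding RNAs and at a threshold of 0.01. The replicate block also removed it, as did leaving out exposed replicate 1, 3 or 4 of 30 weeks. ADM fell in controls by -0.87 (edgeR adjusted p = 0.00287), against 0.42 in exposed cells (edgeR adjusted p = 0.0987). EPAS1 likewise fell in controls by -0.63 (edgeR adjusted p = 0.00911), against 0.26 in exposed cells (edgeR adjusted p = 0.249). ALDOC rose in controls by 0.62 (edgeR adjusted p = 0.00441) and fell in exposed cells by -0.66 (edgeR adjusted p = 0.00208). HIF1A fell in exposed cells by -0.96 (edgeR adjusted p = 0.000258), against -0.40 in controls (edgeR adjusted p = 0.0743). SLC2A3 rose in both arms (2.87 and 1.92), as did ENO2 (0.85 and 1.24).

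Of a further 47 genes of the HIF pathway and of glucose and pyruvate metabolism, 40 were tested and 16 passed at 30 weeks, 6 upregulated and 10 downregulated. Beside the 23.7% of all tested genes changed, this gave a median log2 fold change of -0.06. ARNT2, an alternative partner of the HIF subunits, rose (1.11, edgeR adjusted p = 0.000852), and CITED2, which competes for HIF coactivators, fell (-0.48, edgeR adjusted p = 0.00499). In the ubiquitin ligase that VHL serves, ELOB (-0.69) and RBX1 (-0.83) fell, while CUL2 (0.38) and ELOC (-0.56) did not pass. The groups overlapped for RBX1, with 94.2 to 207 CPM in the 30-week controls and 54.8 to 146 CPM in exposed cells. In glycolysis and glycogen metabolism, PFKL (0.62) and PFKFB2 (0.64) rose and ENO3 (-1.19), PGM1 (-0.46) and GBE1 (-0.37) fell. ENO3, the enolase of muscle, had 2.68 to 3.74 CPM in the 30-week controls and 0.841 to 1.62 CPM in exposed cells. It had 1.35 to 2.67 CPM at 24 h, and 24 to 87 counts per library over all times. A link to the muscle markers was not tested. Among other hypoxia targets, ERO1A (0.43) rose, and ANKRD37 (-1.67), IGFBP3 (-1.20), MXI1 (-0.57) and BNIP3L (-0.50) fell. Of the pyruvate and lactate genes only PDK3 passed (0.34, edgeR adjusted p = 0.0499).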

How the data were processed

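RNA of BEAS-2B cells was sequenced in 15 samples, grouped by GEO's labels. Per the study's methods, the authors filtered reads with Rfastp and used GRCh38 for mapping and Rsubread for counting. The deposited values are raw counts per Entrez gene, not normalized. The counting strand and the handling of shared reads are not given in the sources used here. Submitters' processing notes also name bcl2fastq and featureCounts. No column of the table was left out.

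The main test was the quasi-likelihood test of edgeR 4.0.16 (R 4.3.3), with TMM scaling and 1 mean per condition over all 15 samples, on the 16740 genes that filterByExpr kept. Adjustment was by Benjamini-Hochberg across these genes (threshold 0.05). CPM were scaled by TMM, standard errors were derived from the F statistic, and correlations used log2 CPM with a prior count of 2. All 40 genes may be named, with per-library values for those that passed at 30 weeks. Of the 47 further pathway genes, those that passed at 30 weeks may be named, and CUL2 and ELOC were added after their values were seen. Some genes of the pathway and marker lists are not reported here by name. These genes, lists and tests were chosen with earlier results of these data known. Same-numbered control and exposed replicates did not deviate together (correlations of deviations across genes from -0.118 to 0.303 at 30 weeks), so the numbers were not taken to pair samples. Alternatives used DESeq2 1.42.0, limma 3.58.1 with voom, sva 3.50.0 (2 surrogate variables), other filters, scalings and thresholds, a replicate block, and each replicate left out. Some marker lists (airway secretory or ciliated, fibroblast, endothelial, leukocyte) were summed in the same way. The procedure was tested on simulated data. Promoters came from RefSeq, GRCh38.p14.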

Additional observations from a re-analysis of the deposited data

Results flagged for a closer look

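In the 4 exposed libraries at 30 weeks, replicate 2 lay far above the other 3 for 4 of the 40 genes by the ratio of the gap to the range, past Dixon's 95% critical value. The ratio was 0.943 for LDHB (559.2 CPM, against 201.9 to 222.1), 0.844 for PGK1 (810.7 CPM, against 637.7 to 664.8), 0.84 for HIF1A (147.4 CPM, against 90.04 to 99.19) and 0.832 for P4HA1 (40.61 CPM, against 21.76 to 24.93). Chance flags about 1 in 20 groups, and the 40 genes share the same libraries.

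The exposure effect at 30 weeks differed from that at 15 weeks, by the interaction test in edgeR, for VEGFA (1.49 on the log2 scale), ADM (1.29), ALDOC (-1.28) and DDIT4 (-1.86).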

How the results depend on the processing

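At 30 weeks ADM, ALDOC, BNIP3, DDIT4, EPAS1, PKM, SLC2A3 and VEGFA passed in all 16 alternatives at the 0.05 threshold, and the 18 genes that passed kept their direction in each of them. The count of 18 became 9 at an adjusted p under 0.01 (12.9% of all tested genes) and 8 with each time point fitted alone (15.3% of all tested genes). HIF1A (adjusted p = 0.0633) and ENO2 (0.0507) were lost in that fit only, together with EGLN1, CA9, TPI1, GAPDH, ALDOA, PGAM1, PFKP and PFKFB4, which were also lost elsewhere. With 1 replicate left out, the count ran from 12 (without control replicate 1, 14.9% of all tested genes) to 24 (without exposed replicate 2, 34.2%). The counts at 24 h and 15 weeks were 0 under every alternative. The change of effect between 30 and 15 weeks gave 11 genes with limma-voom and surrogate variables and 3 to 10 with 1 replicate left out. An adjusted p under 0.01 gave 13 genes for controls at 15 weeks against 24 h, 10 for exposed cells at 30 against 15 weeks and 10 of the further pathway genes. With 1 replicate left out the ranges were 12 to 14 for controls and 10 to 14 for exposed cells at 15 weeks against 24 h, 16 to 25 and 10 to 22 at 30 against 15 weeks, and 11 to 20 for the pathway genes. Lone samples were then assumed to vary like the other groups. For comparisons other than exposed against control cells at 30 weeks, the shares of all tested genes in these alternatives are not given. Whether those counts are particular to the HIF pathway and glycolysis genes was therefore not tested.

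With the replicate number as a block 12 genes passed at 30 weeks (18 without), beside 19.9% of all tested genes (23.7% without). The other counts were 4 for the change of effect and 18 and 18 for controls and exposed cells at 15 weeks against 24 h. They were 21 and 13 at 30 against 15 weeks, 16 for the pathway genes and 0 at 24 h and 15 weeks. With the block, the share of all tested genes is given only for exposed against control cells at 30 weeks. Not every sample correlated best with its own number, so the block tests no pairing of the design.

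Genes that did not pass changed sign as follows. With 1 replicate left out PFKM (0.01) ran from -0.0654 to 0.0589, GPI (0.03) from -0.0555 to 0.1327, HIF1AN (0.08) from -0.0123 to 0.2532, LDHB (0.11) from -0.3882 to 0.2574, CA12 (-0.11) from -0.4357 to 0.267, PDK1 (-0.04) from -0.0941 to 0.0253, EGLN2 (0.24) from -0.0277 to 0.4665 and EGLN3 (0.21) from -0.0555 to 0.4441. PFKM became -0.0082 with surrogate variables, -0.0048 with at least 10 counts, -0.0233 with upper-quartile scaling and -0.0042 with time points alone, and LDHB -0.034 with limma-voom and -0.16 with surrogate variables. With the block GPI became -0.0308, HIF1AN -0.0028 and CA12 0.0131. The causes were not tested. Genes with few counts, such as EGLN2, EGLN3, CA9 and CA12, are limited by depth.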
